A study of Mus musculus with 40 samples.

Results

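The 10 genes described here code for the proteins that pass a signal from a Gs- or Gi-coupled receptor to adenylyl cyclase and for those that end it. They were the rows of the count table with the symbols *Gnas*, *Gnal*, *Gnai1*, *Gnai2*, *Gnai3*, *Arrb1*, *Arrb2*, *Grk5*, *Grk6* and *Rgs2*, 10 of the 20295 genes listed, and all 10 were among the 13277 genes with enough counts to test. They were chosen by name, not by a measured value. When an agonist occupies a receptor, or when a receptor is active by itself, the alpha subunit of the G protein takes up GTP and leaves the beta and gamma subunits. Gs alpha stimulates adenylyl cyclase and Gi alpha inhibits it. Receptor kinases phosphorylate the active receptor, arrestins then bind it and uncouple it from the G protein, and RGS proteins bind alpha subunits, most of them to speed the hydrolysis of GTP. In brown adipocytes the cAMP made by this route drives lipolysis and the transcription of *Ucp1*.

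RNA of brown adipose tissue (BAT) was sequenced from 40 male mice in 8 groups of 5, all kept at 29 °C, which is thermoneutral for mice. The first cohort held C-3BO mice, 13 to 19 weeks old, in which *Ucp1*-Cre removed a stop cassette before a CAG-driven *Gpr3* transgene at *Rosa26* (*Gpr3* TTG), so that brown and beige adipocytes carried the constitutively active receptor GPR3. Control mice were littermates with either the *Gpr3* TTG allele or Cre but not both, and C-3BO and control mice ate chow or, for the last 7 days, a high fat diet (HFD) with 60 kcal% fat. The second cohort was made up of control littermates, 15 weeks old, from an inducible line of the same transgene. They received 9 daily injections of saline at 10 µl/g or of CL-316,243 (CL), an agonist of the β3-adrenergic receptor, at 1 mg/kg, and on HFD the injections began 2 days before the diet. The 2 cohorts differed in parents, age and handling, and levels between them cannot be told apart from these differences. Levels were therefore tested only within a cohort. The C-3BO effect was also tested against the CL effect, each taken against its own control group. Cohort and treatment cannot be told apart in that difference.

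Library totals lay between 849126 counts, in HFD saline replicate 4, and 15260516 counts. The 12 lowest totals, up to 7284129, were those of all HFD saline and HFD CL mice and of HFD C-3BO replicates 4 and 5, and these 12 libraries stood apart in transcripts of liver, with *Alb* between 62.2 and 294 CPM against at most 1.62 CPM elsewhere. The CL comparison on HFD rests on such libraries alone, and between HFD C-3BO and HFD control mice 7 of 7 tested liver and 3 of 3 tested epididymis markers were higher. *Gpr3* set C-3BO apart from control mice, at 375 ± 82.5 against 0.388 ± 0.288 CPM (SD, n = 5) on chow and 792 ± 95.8 against 0.335 ± 0.217 CPM (SD, n = 5) on HFD. In the injected mice it did not exceed 1.18 CPM except in chow CL replicate 3, at 9.15 CPM. *Ucp1* was detected in all 40 libraries, from 1116 to 15798 CPM, and so were all 8 brown adipocyte markers in every group. In chow CL replicate 5 *Ucp1* was 1644 CPM, within the chow saline range of 1267 to 1865 CPM, while the other 4 chow CL mice had 5943 to 8986 CPM, and results on chow CL that passed the test are also given without it. *Ucp1* also varied widely in HFD control mice, from 2573 to 9442 CPM, and was highest in replicate 4. That mouse had the highest *Gnas* of its group, at 4997 CPM, and the lowest *Gnai2* and *Rgs2*, at 211 and 162 CPM. Skeletal muscle transcripts differed between groups, with the summed level of 6 muscle markers from 611 to 7756 CPM in chow control, from 317 to 3054 CPM in chow C-3BO, from 4.32 to 170.5 CPM in HFD control and from 4.16 to 57.96 CPM in HFD C-3BO mice. For the mice given injections the sum was from 8.14 to 2044 CPM in chow saline and from 8.46 to 113 CPM in chow CL mice, where 5 of 6 muscle markers were lower under CL, and from 14.04 to 1615 CPM and from 22.4 to 530.3 CPM on HFD, where 0 of 6 passed.

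Levels are given in CPM, the counts of a gene scaled to a common library total after correction by TMM factors. To compare genes with each other, CPM were divided by the exon length that was counted, as CPM per kb. On this scale *Gnas* stood far above the other genes, at 1267 ± 277 CPM per kb (SD, n = 5) in chow control mice. *Rgs2* followed with 128 ± 17.3 and *Gnai2* with 98.1 ± 7.70 CPM per kb (SD, n = 5). *Gnai1*, *Gnai3*, *Grk6*, *Arrb1* and *Grk5* lay between 22.7 and 10.7 CPM per kb on average, *Arrb2* was at 5.78 ± 0.268 and *Gnal* was the lowest at 1.27 ± 0.246 CPM per kb (SD, n = 5). The low genes rest on few reads, with 5 to 139 counts of *Gnal* and 21 to 212 of *Arrb2* in a library against 2167 to 67598 of *Gnas*. Each of these lowest counts was that of HFD saline replicate 4.

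**Figure D1:**
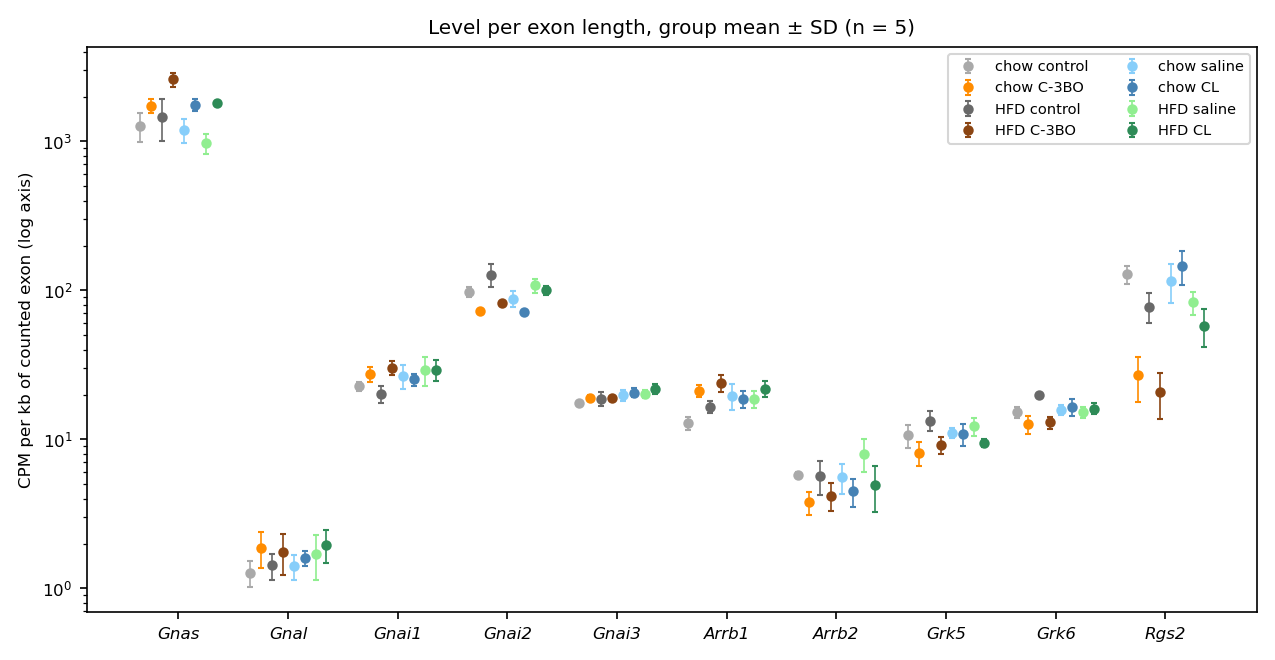
Mean CPM per kb of counted exon ± SD (n = 5) of each gene in the 8 groups, on a log axis. *Gnas* lies above every other gene and *Gnal* lies lowest in each group, while *Rgs2* has its lowest means in both C-3BO groups.

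A gene is said to have risen or fallen where its adjusted p was under 0.05 in a quasi-likelihood fit by edgeR, with the adjustment of Benjamini and Hochberg taken over 13277 genes. On chow 3 of the 10 genes rose and 5 fell in C-3BO against control mice, while 15.8% of all tested genes rose and 15.9% fell. On HFD 3 rose and 4 fell in C-3BO mice, against 19.3% and 15.5% of all genes. *Rgs2* alone passed a log2 fold change of 1 or -1 as well, on both diets, which 7.19% of all genes did on chow and 7.43% on HFD. Under CL 1 of the 10 genes was higher and 1 lower on chow (9.16% and 6.13% of all genes). On HFD 1 was higher and 2 were lower (12.7% and 10.8% of all genes). None was past a log2 fold change of 1 or -1 (2.58% and 4.11% of all genes). These counts lay near the shares of all genes, of which fewer were called under CL than in C-3BO mice. Without HFD C-3BO replicates 4 and 5 the counts on HFD were 3 and 5. When libraries were scaled by their totals without TMM factors, the median log2 fold change of all genes moved by -0.20 on chow and -0.17 on HFD for C-3BO and by -0.14 on both diets for CL, and higher calls fell from 49.8% to 20.2%, from 55.3% to 30.1%, from 59.9% to 26.6% and from 54.0% to 27.9% of all calls in these 4 comparisons. Of the 10 genes, 1 then rose in C-3BO mice on chow, as did 1045 of all 13277 genes. In bulk tissue fewer cells of a type and less RNA per cell cannot be told apart.

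**Figure D2:**
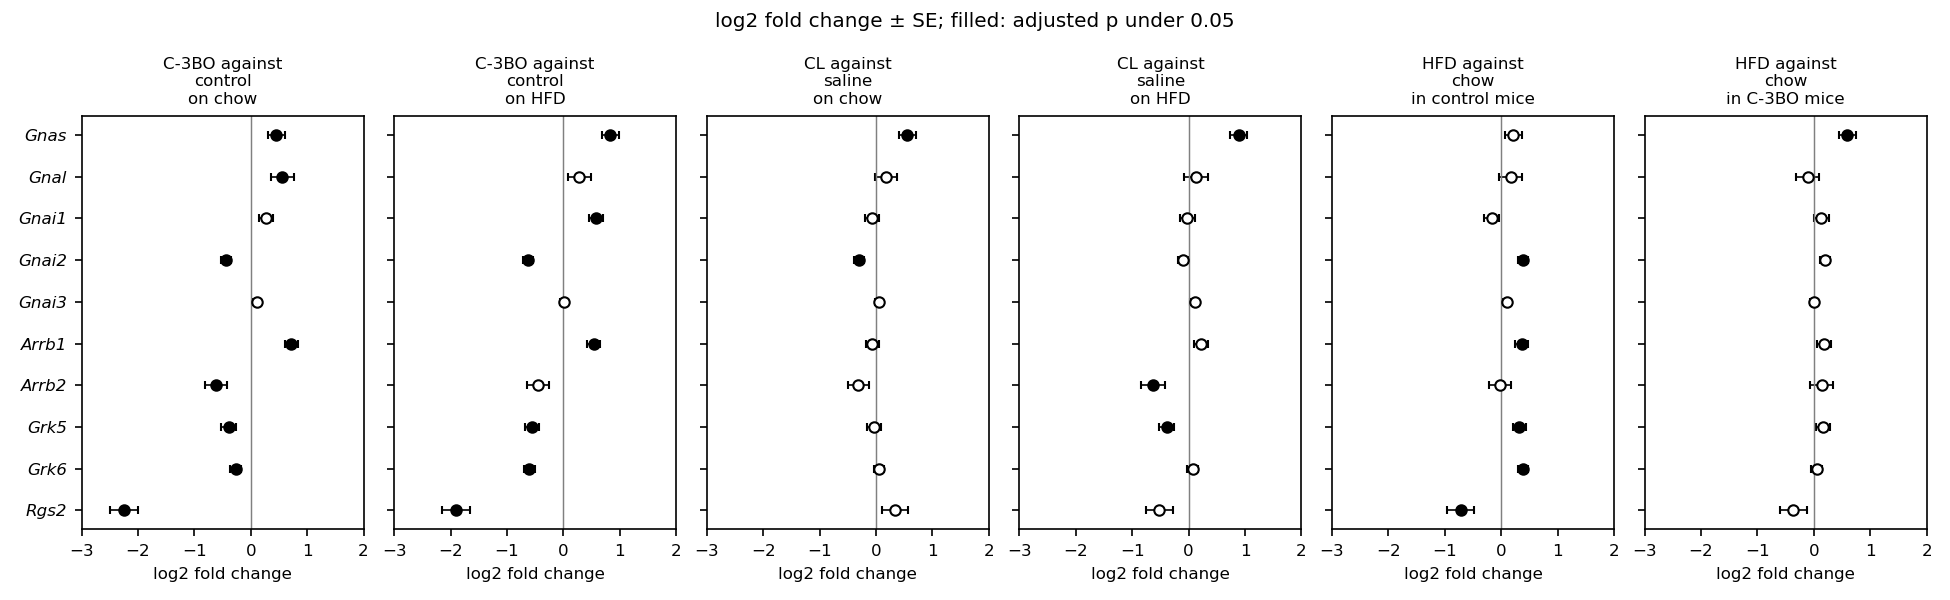
log2 fold change ± SE of each gene in 6 comparisons, with filled symbols for an adjusted p under 0.05. *Gnas* lies right of 0 in all 4 treatment comparisons, and *Rgs2* lies beyond -1 in both C-3BO comparisons and in no other.

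*Gnas*, which codes for Gs alpha, was counted on the exons of 1 RefSeq transcript, on chromosome 2 from 174109821 to 174172243 on the plus strand of mm9, which begins at the most upstream of the alternative first exons of this imprinted locus. Its counted length was 2352 bases, whereas the exons of all 22 GENCODE transcripts of the gene cover 11186 bases, so that transcripts for Gs alpha, XLαs and Nesp55 share the counted exons and cannot be told apart. The antisense gene *Nespas* overlaps exons of the locus on the other strand, and the library kit does not mark strand. RefSeq's table for GRCm38.p6 holds 4 starts of *Gnas* and 1 of *Rgs2*. The 250 bases before the most downstream *Gnas* start and before the *Rgs2* start are shown because these 2 genes carried the changes seen most widely and the largest change, and because both windows hold half-sites of the cAMP response element. Capitals mark this half-site, TGACG or, read from the other strand, CGTCA.
Gnas, chr2:174329756-174330005, plus strand: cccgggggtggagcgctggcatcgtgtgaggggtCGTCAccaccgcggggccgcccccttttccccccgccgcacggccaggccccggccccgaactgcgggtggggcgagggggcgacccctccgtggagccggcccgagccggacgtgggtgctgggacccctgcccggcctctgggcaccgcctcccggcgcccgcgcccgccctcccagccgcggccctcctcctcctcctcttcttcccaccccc
Rgs2, chr1:144004150-144004399, minus strand: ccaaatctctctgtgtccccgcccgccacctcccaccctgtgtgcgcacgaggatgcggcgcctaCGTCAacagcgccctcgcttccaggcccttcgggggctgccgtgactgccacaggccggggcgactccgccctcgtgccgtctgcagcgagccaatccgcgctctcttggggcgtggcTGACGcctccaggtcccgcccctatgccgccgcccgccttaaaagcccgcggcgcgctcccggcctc

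In the *Gnas* window the half-site began 216 bases before the start. In the *Rgs2* window CGTCA began 185 and TGACG 67 bases before it. The half-site was found on either strand in 17.8% of the 32851 windows of this length in the table, and the full palindrome TGACGTCA in 1.55%. Of the 11 windows of 6 of the 10 genes, 4 held a half-site, 3 of *Gnas* and 1 of *Rgs2*, and 0 held the palindrome. The *Gnas* windows 174327499-174327748 and 174327518-174327767 overlap and hold the same CGTCA, 38 and 57 bases before their starts. Windows of *Grk6* overlap as well, so the 11 windows are not separate stretches and their share cannot be set against that of all windows. Those of *Gnai1*, *Gnai3*, *Grk5* and *Grk6* held neither, and *Gnal*, *Gnai2*, *Arrb1* and *Arrb2* had no entry. These matches describe letters and were not tested as binding sites.

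*Gnas* rose in all 4 treatment comparisons. Chow control mice had 2838, 2431, 2709.6, 4109 and 2808 CPM, and chow C-3BO mice had 3865, 3427, 4329.6, 4514 and 4254 CPM. The groups overlapped, since control replicate 4 lay above 2 of the C-3BO mice, and C-3BO mice were 1.37-fold higher on the fitted scale (log2 fold change 0.45, SE 0.15, adjusted p = 0.0193). This call was lost without chow control replicate 2 (log2 fold change 0.39, adjusted p = 0.0612) and with scaling by library totals (log2 fold change 0.25, adjusted p = 0.147). HFD control mice had 2482, 2497, 4079, 4997 and 3192 CPM and HFD C-3BO mice 6340.4, 7104, 6171, 5360.0 and 5698 CPM. On HFD every C-3BO mouse stood above every control mouse (log2 fold change 0.83, SE 0.15, adjusted p = 4.27e-05), and the HFD C-3BO range lay wholly above those of the other 7 groups. Within C-3BO mice *Gnas* was also higher on HFD than on chow (log2 fold change 0.59, SE 0.15, adjusted p = 0.0036).

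The injected mice showed the same direction for *Gnas*. With saline the levels were 2968, 2283, 2341, 2969 and 3503 CPM on chow and 2118, 2316, 1941, 2173 and 2862 CPM on HFD. With CL they were 4578, 3752, 4221, 4388 and 3693 CPM on chow and 4359, 4044, 4004, 4398 and 4336 CPM on HFD. All 5 CL mice lay above all 5 saline mice on each diet (log2 fold change 0.55, SE 0.15, adjusted p = 0.00983 on chow and 0.89, SE 0.15, adjusted p = 3.33e-05 on HFD). Without chow CL replicate 5 the chow value was 0.59, adjusted p = 0.00849. The effect of C-3BO on *Gnas* differed from that of CL by a log2 value of -0.10, SE 0.21, adjusted p = 0.84 on chow and of -0.06, SE 0.21, adjusted p = 0.952 on HFD, which did not pass the test. For both treatments the estimate was larger on HFD, but neither difference passed the test (0.38, SE 0.21, adjusted p = 0.409 for C-3BO and 0.34, SE 0.21, adjusted p = 0.645 for CL).

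**Figure D3:**
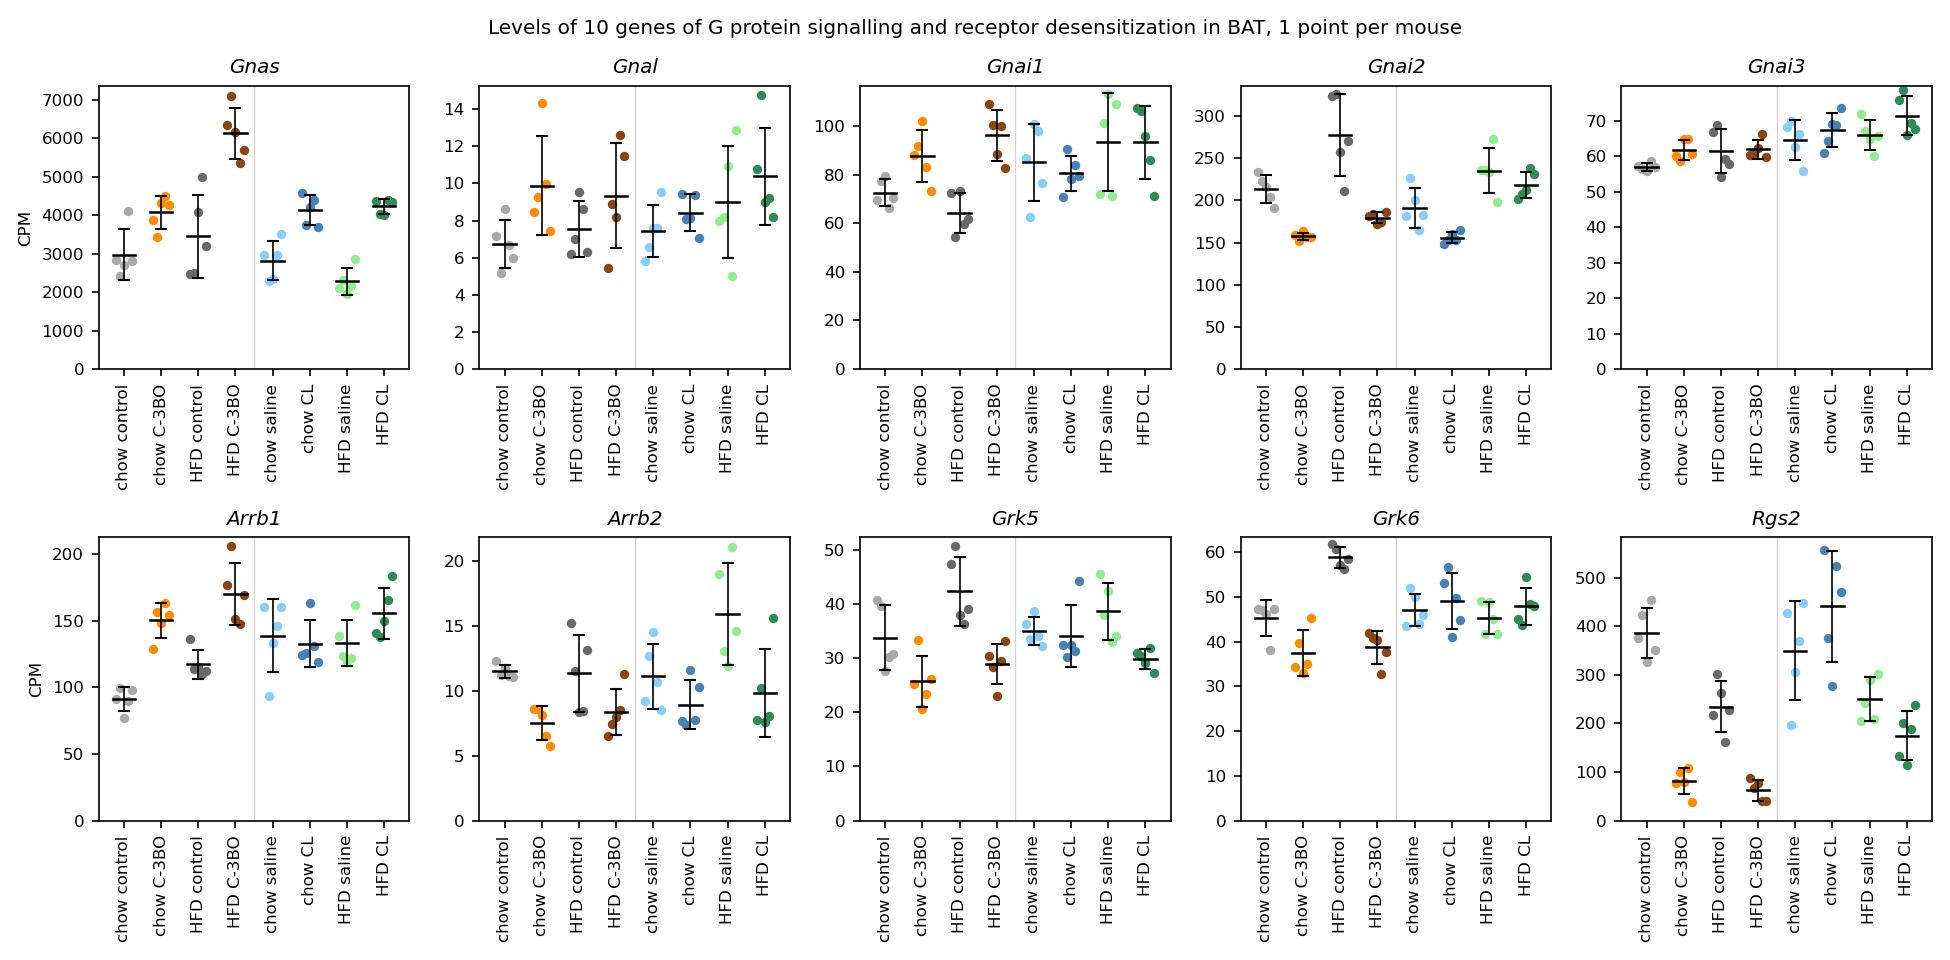
CPM of the 10 genes in each mouse (points) with mean and SD (n = 5) for the 8 groups, the first cohort left and the injected cohort right of the grey line. *Gnas* in HFD C-3BO mice and *Rgs2* in both C-3BO groups stand clear of the other groups, while the ranges of *Gnal* and *Gnai3* overlap between neighbouring groups.

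*Gnal* (chromosome 18 from 67247952 to 67386445 on the plus strand of mm9) codes for G olf alpha, a close relative of Gs alpha that couples odorant and dopamine receptors to adenylyl cyclase. Its level was between 5.01 and 14.8 CPM in the 40 libraries. On chow it rose from 6.73 ± 1.30 CPM in control to 9.89 ± 2.66 CPM in C-3BO mice (SD, n = 5; log2 fold change 0.56, SE 0.20, adjusted p = 0.0336). The call was lost without chow control replicate 2 or 5 or chow C-3BO replicate 3 or 4 (log2 fold change from 0.42 to 0.56, adjusted p from 0.0542 to 0.127) and with library totals alone (adjusted p = 0.148). On HFD the estimate was 0.28, SE 0.20, adjusted p = 0.299, and it became -0.01 without HFD C-3BO replicates 4 and 5. CL gave estimates that did not exceed their SE. *Gnal* was far below *Gnas* per kb, with *Gnas* 399.8 to 975 times as high in HFD saline and 954 to 2621 times as high in HFD C-3BO mice, the groups with the lowest and highest mean ratio. In the GENCODE annotation exons of *Gnal* share bases with *Mppe1* on the opposite strand, and whether the counted exons do was not checked.

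The 3 inhibitory alpha subunits did not move together. *Gnai2* (chromosome 9 from 107516469 to 107537673 on the minus strand of mm9), the most abundant of them, fell in C-3BO mice on both diets. Chow control mice had 234, 223, 216, 204 and 191 CPM and chow C-3BO mice 159, 152, 163, 156 and 156 CPM. On HFD the levels were 324, 327, 258, 211 and 270.0 CPM in control and 181, 184, 172, 175 and 187 CPM in C-3BO mice. The ranges did not overlap on either diet (log2 fold change -0.44, SE 0.09, adjusted p = 0.000278 on chow and -0.63, SE 0.09, adjusted p = 1.17e-06 on HFD). The C-3BO mice also varied little, with SDs of 4.33 and 6.11 CPM against 16.8 and 48.5 CPM in control mice.

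CL lowered *Gnai2* on chow. Saline mice had 181, 226, 200.4, 165 and 183 CPM and CL mice 149, 153, 159.7, 153 and 165 CPM, with the highest CL mouse just under the lowest saline mouse (log2 fold change -0.30, SE 0.09, adjusted p = 0.0218). It was -0.32, adjusted p = 0.0201 without chow CL replicate 5, and the adjusted p lay from 0.0514 to 0.0748 when chow saline replicate 2 or chow CL replicate 1 or 4 was left out (log2 fold change from -0.24 to -0.29). On HFD the groups overlapped, at 236, 236, 233, 273 and 198 CPM with saline and 202, 207, 213, 238 and 231 CPM with CL (log2 fold change -0.10, SE 0.09, adjusted p = 0.47). The C-3BO effect was lower than the CL effect on HFD (difference -0.53, SE 0.13, adjusted p = 0.0237), a call lost without HFD control replicate 2 or HFD CL replicate 4 (difference from -0.48 to -0.50, adjusted p from 0.0518 to 0.0552) without HFD C-3BO replicates 4 and 5 (adjusted p = 0.0626) and with library totals alone (adjusted p = 0.0701). On chow this difference was -0.15, SE 0.13, adjusted p = 0.564. For *Gnai1*, described next, the same difference on HFD was 0.60, SE 0.18, adjusted p = 0.0794, and it passed the test without HFD saline replicate 1 (difference 0.68, adjusted p = 0.0421) and with DESeq2 (adjusted p = 0.0485).

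*Gnai1* (chromosome 5 from 17770953 to 17866231 on the minus strand) went the other way. On HFD it rose from 72.6, 54.5, 73.2, 59.7 and 61.7 CPM in control mice to 109, 100.2, 88.7, 100.03 and 82.7 CPM in C-3BO mice, with no overlap (log2 fold change 0.58, SE 0.13, adjusted p = 0.000492). On chow the means were 72.5 ± 5.57 CPM in control and 87.7 ± 10.6 CPM in C-3BO mice (SD, n = 5), with 4 of 5 C-3BO mice above all control mice, and this did not pass the test (log2 fold change 0.28, SE 0.13, adjusted p = 0.095). It passed with the libraries of the comparison alone (adjusted p = 0.0422). Neither CL comparison exceeded its SE. *Gnai3* (chromosome 3 from 107910193 to 107949070 on the minus strand) stayed between 54.0 and 78.6 CPM in the 40 libraries and was called in 0 of 10 comparisons by edgeR with TMM factors and by DESeq2, with 0 at an unadjusted p under 0.05 in edgeR. With library totals alone it passed for HFD against chow in control mice (log2 fold change 0.26, adjusted p = 0.0163). Its group means ranged over 1.25-fold, from 57.05 ± 1.10 CPM to 71.5 ± 5.46 CPM (SD, n = 5), the narrowest of the 10 genes.

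The make-up of the Gi pool, read as each subunit's share of the summed *Gnai1*, *Gnai2* and *Gnai3* CPM per kb, is given as a description. *Gnai2* held 70.9 ± 1.55% of it in chow control and 60.96 ± 1.60% in chow C-3BO mice, and 76.4 ± 2.74% in HFD control and 62.7 ± 2.02% in HFD C-3BO mice (SD, n = 5). *Gnai1* held 16.4 ± 1.18% and 23.1 ± 2.002% on chow and 12.3 ± 2.15% and 22.9 ± 1.98% on HFD. In the injected mice the *Gnai2* share was 65.3 ± 4.48% with saline and 60.9 ± 1.36% with CL on chow, and 68.5 ± 4.89% and 66.2 ± 4.08% on HFD. The control and C-3BO ranges of both shares were apart on each diet, whereas saline and CL ranges overlapped. These shares repeat the single genes and were given no test of their own.

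**Figure D4:**
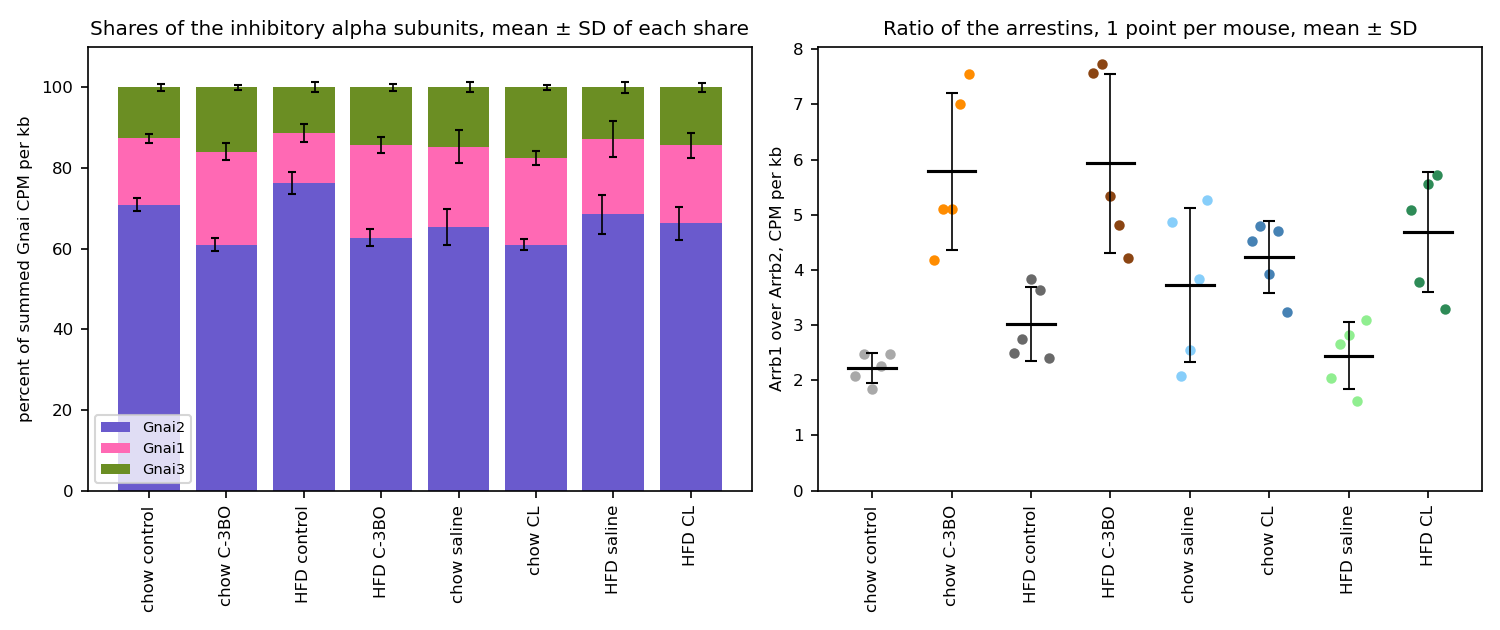
Left, share of each inhibitory alpha subunit in their summed CPM per kb, stacked bars with the mean and the SD of each share (n = 5). Right, *Arrb1* over *Arrb2* in CPM per kb, 1 point per mouse with mean and SD. The *Gnai2* share is lower and the arrestin ratio higher in C-3BO than in control mice on each diet.

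The 2 β-arrestins moved in opposite directions in C-3BO mice on chow. *Arrb1* (chromosome 7 from 106683996 to 106755281 on the plus strand of mm9) codes for β-arrestin 1. Chow control mice had 91.5, 99.8, 77.2, 89.9 and 97.7 CPM and chow C-3BO mice 129, 156, 148, 164 and 155 CPM. On HFD the levels were 137, 113, 115, 109.8 and 113 CPM in control and 177, 206, 152, 147 and 169.6 CPM in C-3BO mice. On both diets the lowest C-3BO mouse was above the highest control mouse (log2 fold change 0.72, SE 0.12, adjusted p = 1.14e-05 on chow and 0.54, SE 0.12, adjusted p = 0.000418 on HFD), and both calls held in all alternatives run. No change under CL passed the test, with 160.0, 93.9, 133, 146 and 160.1 CPM with saline and 124, 126, 164, 131 and 119 CPM with CL on chow (log2 fold change -0.06, SE 0.12, adjusted p = 0.775). On HFD the means were 133 ± 17.4 CPM and 156 ± 19.1 CPM (SD, n = 5; log2 fold change 0.22, SE 0.12, adjusted p = 0.186). The effect of C-3BO exceeded that of CL on chow by a log2 value of 0.78, SE 0.16, adjusted p = 0.00279 (0.75, adjusted p = 0.00679 without chow CL replicate 5). On HFD the difference was 0.32, SE 0.17, adjusted p = 0.406. The saline mice on chow averaged 139 CPM, the chow C-3BO mice 150.3 CPM and the chow control mice 91.2 CPM. The ranges of chow saline and chow control mice overlapped, and levels were not tested between the cohorts.

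*Arrb2* (chromosome 11 from 70246082 to 70254330 on the plus strand), the gene of β-arrestin 2, was low in all groups. It fell on chow from 12.3, 11.2, 11.8, 11.1 and 11.05 CPM in control to 8.59, 8.56, 8.12, 6.53 and 5.73 CPM in C-3BO mice, with no overlap (log2 fold change -0.61, SE 0.20, adjusted p = 0.016; adjusted p = 0.051 without chow C-3BO replicate 5, log2 fold change -0.53). On HFD the estimate was -0.45, SE 0.20, adjusted p = 0.0729. That comparison passed the test without HFD control replicate 3 or 4 or HFD C-3BO replicate 5 (log2 fold change from -0.54 to -0.58, adjusted p from 0.0319 to 0.0371), and the difference between the effects on the 2 diets did not pass the test (0.16, SE 0.28, adjusted p = 0.845). CL lowered *Arrb2* on HFD from 19.01, 13.1, 11.9, 21.1 and 14.6 CPM to 7.73, 10.2, 7.56, 8.09 and 15.6 CPM, where CL replicate 5 lay within the saline range (log2 fold change -0.63, SE 0.21, adjusted p = 0.0234). This call was lost when HFD saline replicate 1 or 4 or HFD CL replicate 1, 3 or 4 was left out (log2 fold change from -0.51 to -0.56, adjusted p from 0.056 to 0.0985). The 21.1 CPM of HFD saline replicate 4 rest on 21 counts. The 7 macrophage markers summed from 164 to 369 CPM in HFD saline and from 66.8 to 177 CPM in HFD CL mice, with 2 of 7 lower under CL. The 6 fibroblast and preadipocyte markers summed from 2281 to 3692 CPM and from 1073 to 2318 CPM, with 4 of 6 lower. Their part in the result was not tested.

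Per kb, *Arrb1* was 2.23 ± 0.274 times as high as *Arrb2* in chow control and 5.79 ± 1.42 times in chow C-3BO mice (SD, n = 5). On HFD the ratio was 3.02 ± 0.667 in control and 5.93 ± 1.62 in C-3BO mice. The ranges were 1.84 to 2.48 against 4.18 to 7.55 on chow and 2.40 to 3.84 against 4.21 to 7.73 on HFD, apart on both diets. In the injected mice it was 3.72 ± 1.398 with saline and 4.24 ± 0.652 with CL on chow, where the ranges overlapped, and 2.44 ± 0.601 and 4.69 ± 1.09 on HFD, where they did not.

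The receptor kinases *Grk5* and *Grk6* fell in C-3BO mice. *Grk4*, of the same subfamily, was not called, at log2 fold changes of 0.04, adjusted p = 0.912 on chow and -0.09, adjusted p = 0.81 on HFD. *Grk6* (chromosome 13 from 55546433 to 55562288 on the plus strand of mm9) went from 61.8, 60.7, 57.2, 56.2 and 58.4 CPM in HFD control to 42.03, 40.7, 40.4, 32.8 and 37.7 CPM in HFD C-3BO mice, with no overlap (log2 fold change -0.60, SE 0.09, adjusted p = 3.13e-06). On chow the levels were 47.4, 47.00, 46.1, 38.1 and 47.4 CPM in control and 34.4, 39.8, 32.96, 35.1 and 45.4 CPM in C-3BO mice. These ranges overlapped, and the smaller fall (log2 fold change -0.27, SE 0.09, adjusted p = 0.0238) was lost with the 10 libraries of the comparison alone (adjusted p = 0.0934), with no filter on low counts (adjusted p = 0.0514), or without chow control replicate 1 or 5 or chow C-3BO replicate 1, 3 or 4 (log2 fold change from -0.19 to -0.25, adjusted p from 0.0518 to 0.131). CL left *Grk6* with estimates under their SE on both diets. On HFD the C-3BO effect was lower than the CL effect (difference -0.68, SE 0.13, adjusted p = 0.0038), whereas on chow the difference was -0.33, SE 0.13, adjusted p = 0.128.

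*Grk5* (chromosome 19 from 60965652 to 61168458 on the plus strand) had 47.5, 50.9, 38.1, 36.3 and 39.1 CPM in HFD control and 30.5, 28.4, 23.1, 29.5 and 33.2 CPM in HFD C-3BO mice, again with no overlap (log2 fold change -0.55, SE 0.13, adjusted p = 0.000645). On chow it fell from 40.7, 39.7, 27.6, 30.3 and 30.7 to 25.3, 33.3, 20.7, 23.4 and 26.2 CPM with overlap (log2 fold change -0.39, SE 0.13, adjusted p = 0.0149). The chow call was lost with the 10 libraries alone (adjusted p = 0.0728) and without chow control replicate 1 or 2 or chow C-3BO replicate 3 (log2 fold change from -0.29 to -0.33, adjusted p from 0.0544 to 0.0848). CL lowered it on HFD, from 45.6, 38.1, 42.5, 33.1 and 34.1 CPM to 30.9, 30.4, 29.1, 31.9 and 27.2 CPM, with all CL mice below all saline mice (log2 fold change -0.39, SE 0.13, adjusted p = 0.0261). Without HFD saline replicate 1 or 3 or HFD CL replicate 5 the adjusted p lay from 0.0605 to 0.108 (log2 fold change from -0.31 to -0.36). On chow CL gave -0.04, SE 0.12, adjusted p = 0.891, and the difference between its effects on HFD and chow was -0.36, SE 0.18, adjusted p = 0.54.

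Markers of other cell types moved in the same comparisons. In C-3BO mice on HFD 5 of 6 endothelial markers and 4 of 6 markers of smooth muscle and pericytes fell. The summed endothelial level was from 1454 to 1984 CPM in HFD control and from 1166 to 1389.6 CPM in HFD C-3BO mice, and that of smooth muscle and pericytes was from 485 to 505 CPM and from 350.0 to 472 CPM. On chow 3 of 6 endothelial markers fell, with sums from 761 to 1218 CPM in control and from 494 to 963 CPM in C-3BO mice, and for smooth muscle and pericytes 1 rose and 1 fell of 6. No marker of these lists was at 0 in a whole group. The part of these cells in the lower *Gnai2*, *Arrb2*, *Grk5* and *Grk6* levels was not tested. Adding the summed muscle level as a covariate left all 15 calls of the 2 C-3BO comparisons past the test.

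*Rgs2* (chromosome 1 from 145846468 to 145851279 on the minus strand of mm9) codes for a small RGS protein that acts on Gq alpha and also binds Gs alpha and adenylyl cyclase. It showed the largest change of the 10 genes. Chow control mice had 377, 424, 327, 454 and 350.3 CPM and chow C-3BO mice 78.2, 99.8, 80.3, 108 and 37.9 CPM. HFD control mice had 216, 303, 264, 162 and 227 CPM and HFD C-3BO mice 86.6, 67.3, 78.2, 40.95 and 39.5 CPM. The highest C-3BO mouse lay below the lowest control mouse on each diet. On the fitted scale the level was 4.77-fold lower on chow (log2 fold change -2.25, SE 0.25, adjusted p = 1.27e-08) and 3.72-fold lower on HFD (log2 fold change -1.90, SE 0.25, adjusted p = 1.87e-07), and the difference between the 2 diets did not pass the test (0.36, SE 0.34, adjusted p = 0.674).

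No such fall passed the test under CL. Chow saline mice had 427, 196, 307, 369.9 and 448 CPM and chow CL mice 557, 375, 277, 525 and 471 CPM, with 3 CL mice above all saline mice (log2 fold change 0.34, SE 0.24, adjusted p = 0.367; 0.31, adjusted p = 0.437 without chow CL replicate 5). On HFD the levels were 205, 242, 290.0, 209.5 and 303 CPM with saline and 133, 199.9, 115, 188 and 237 CPM with CL, with 4 CL mice below all saline mice (log2 fold change -0.52, SE 0.24, adjusted p = 0.113). The HFD estimate passed the test with the 10 libraries alone (adjusted p = 0.0265) and with library totals alone (adjusted p = 0.0423). The estimate under CL was above 0 on chow and below 0 on HFD, and the difference did not pass the test (-0.86, SE 0.34, adjusted p = 0.407). The C-3BO effect was lower than the CL effect by a log2 value of -2.59, SE 0.34, adjusted p = 6.11e-06 on chow, which passed the test in every alternative run and with each of the 20 libraries left out (-2.56, adjusted p = 1.62e-05 without chow CL replicate 5). On HFD the difference was -1.38, SE 0.34, adjusted p = 0.0257. That call was lost when HFD control replicate 2, HFD C-3BO replicate 4 or 5 or HFD CL replicate 4 or 5 was left out (difference from -1.24 to -1.35, adjusted p from 0.0505 to 0.0611), and without HFD C-3BO replicates 4 and 5 together it was -1.08 (adjusted p = 0.16).

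Of the 10 genes, 2 thus differed between the C-3BO and CL effects on chow (*Arrb1* and *Rgs2*, with 6.24% of all genes past this test) and 3 on HFD (*Gnai2*, *Grk6* and *Rgs2*, with 1.8% of all genes). The stimuli differ in kind and duration, a transgene expressed from early in life against 9 injections. According to the paper, tissue was collected on the day following the last CL dose, to read chronic rather than acute effects. The 2 effects also come from cohorts that differ in parents, age and handling. Between diets edgeR called 0 of the 10 genes different in their C-3BO effect (2.09% of all genes past the test) and 0 in their CL effect (0.0151% of all genes). At an unadjusted p under 0.05 there was 1 in each, *Grk6* for C-3BO (-0.33, SE 0.13, adjusted p = 0.187) and *Rgs2* for CL. DESeq2 also called 0 in both.

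HFD against chow was tested in the first cohort. In control mice 4 of the 10 genes rose and 1 fell, against 15.4% and 17.5% of all genes, and none passed a log2 fold change of 1 or -1 (6.12% of all genes). *Gnai2* (log2 fold change 0.38, SE 0.09, adjusted p = 0.00118), *Grk6* (0.38, SE 0.09, adjusted p = 0.0011), *Arrb1* (0.36, SE 0.12, adjusted p = 0.0141) and *Grk5* (0.32, SE 0.12, adjusted p = 0.0382) rose, and *Rgs2* fell (-0.72, SE 0.24, adjusted p = 0.0168). For *Grk6*, *Arrb1* and *Rgs2* the HFD and chow mice did not overlap. The call of *Arrb1* was lost without chow control replicate 3 or HFD control replicate 1 (log2 fold change 0.31, adjusted p 0.0518 and 0.0588), and that of *Rgs2* without HFD control replicate 4 (log2 fold change -0.62, adjusted p = 0.0502). *Grk5* lost its call without chow control replicate 3, 4 or 5 or HFD control replicate 1 or 2 (log2 fold change from 0.25 to 0.29, adjusted p from 0.0868 to 0.138), with RLE factors (adjusted p = 0.0537), with DESeq2 (adjusted p = 0.059) and with the libraries of the comparison alone (adjusted p = 0.0837). In C-3BO mice *Gnas* rose and 0 fell, against 13.5% and 12.2% of all genes (5.8% past a log2 fold change of 1 or -1). With library totals alone the median of all genes moved by 0.15 in control and 0.18 in C-3BO mice. Higher calls rose from 46.8% to 71.3% and from 52.6% to 81.7% of calls. Then 6 of the 10 genes rose and 0 fell in control mice, while 3512 of all 13277 genes rose and 1413 fell. In C-3BO mice 4 of the 10 rose, while 3858 of all genes rose and 862 fell.

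The muscle transcripts differed between the diets as well, with 6 of 6 muscle markers lower on HFD in control mice and in C-3BO mice. With the summed muscle level as a covariate only *Arrb1* kept its call in control mice (log2 fold change 0.47, adjusted p = 0.0496), while *Gnai2* (log2 fold change 0.21, adjusted p = 0.275), *Grk6* (log2 fold change 0.29, adjusted p = 0.121), *Grk5* (log2 fold change 0.23, adjusted p = 0.407) and *Rgs2* (log2 fold change -0.48, adjusted p = 0.36) did not pass. The summed muscle levels of chow and HFD control mice did not overlap, at 611 to 7756 against 4.32 to 170.5 CPM. Muscle and diet therefore cannot be told apart in this fit, and no conclusion is drawn from the lost calls. Endothelial markers were higher on HFD in control mice for 5 of 6 genes, and so were those of smooth muscle and pericytes. Their part in these results was not tested. In the injected cohort diet and the low library totals with liver transcripts cannot be told apart, so levels alone are given. *Gnas* averaged 2813 CPM on chow and 2282 CPM on HFD with saline, and *Rgs2* 349.7 and 249.9 CPM. With CL, *Rgs2* averaged 441 CPM on chow and 175 CPM on HFD.

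When the 8 groups were put in order of their mean level, the ranges of neighbouring groups overlapped for 66 of the 70 neighbouring pairs. The 4 exceptions were *Gnas* between HFD C-3BO and HFD CL, *Gnai2* between HFD C-3BO and chow C-3BO, *Arrb1* between HFD control and chow control, and *Rgs2* between HFD CL and chow C-3BO. The same share was not taken over all genes, so this count is a description only. The ratio of the highest to the lowest group mean was 7.06 for *Rgs2* and 2.69 for *Gnas*, and between 1.25 and 2.12 for the other 8 genes.

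The other genes of this machinery were read from 7 lists, the remaining alpha subunits, the beta and gamma subunits, the remaining receptor kinases, arrestins, RGS proteins, and chaperones of alpha subunits. Of 70 such genes in the table, 50 were tested. In C-3BO mice 5 rose and 7 fell on chow, against 15.8% and 15.9% of all genes, with a median log2 fold change of -0.16 (all genes -0.03). On HFD 5 rose and 14 fell, against 19.3% and 15.5% of all genes, with a median of -0.21 (all genes -0.02). Without HFD C-3BO replicates 4 and 5 the number that fell on HFD was 9, and it was also 9 without HFD control replicate 2 or HFD C-3BO replicate 1. On chow 4 fell without C-3BO replicate 5. With CL 4 rose and 4 fell on chow, against 9.16% and 6.13% of all genes, with a median of -0.05. On HFD 4 rose and 9 fell, against 12.7% and 10.8% of all genes, with a median of -0.15 (all genes -0.01 on both diets). Leaving out 1 library moved the number that fell under CL to between 1 and 8 on chow, with 1 without CL replicate 1 or 2, 2 without saline replicate 5 and 8 without CL replicate 5. On HFD it was 5 without CL replicate 1. The number that rose under CL on chow was 2 without saline replicate 2. For HFD against chow 8 rose and 3 fell in control mice, against 15.4% and 17.5% of all genes. In C-3BO mice 5 rose and 7 fell, against 13.5% and 12.2% of all genes. With the muscle level as a covariate 4 rose in control mice, and 3 rose and 2 fell in C-3BO mice, but muscle and diet cannot be told apart there. In control mice 4 or 5 rose without chow control replicate 1, 3 or 5 or HFD control replicate 1, 2 or 3, and 1 fell without chow control replicate 4. In C-3BO mice 3 rose without chow C-3BO replicate 1, 3 or 5 or HFD C-3BO replicate 2 or 4.

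Among alpha subunits, *Gnao1*, which codes for Go alpha, rose in all 4 treatment comparisons, in C-3BO mice on chow (log2 fold change 0.69, adjusted p = 3.03e-05) and HFD (68.4 against 37.7 CPM, log2 fold change 0.86, SE 0.12, adjusted p = 7.07e-07) and under CL on chow (47.4 against 30.03 CPM, log2 fold change 0.66, SE 0.12, adjusted p = 0.000191) and HFD (56.05 against 31.05 CPM, log2 fold change 0.84, SE 0.13, adjusted p = 6.3e-06). *Gna11*, a Gq-class subunit, fell under CL on chow (147 against 174 CPM, log2 fold change -0.25, SE 0.08, adjusted p = 0.0281), a call lost without saline replicate 5 or CL replicate 1 or 2 (log2 fold change from -0.14 to -0.24, adjusted p from 0.0627 to 0.169), with the muscle level as a covariate (adjusted p = 0.123) and with the libraries of the comparison alone (adjusted p = 0.122). It also fell in HFD C-3BO mice (log2 fold change -0.41, adjusted p = 0.000118). In the beta subunits *Gnb4* fell in C-3BO mice on chow (10.99 against 20.02 CPM, log2 fold change -0.86, SE 0.19, adjusted p = 0.000544) and HFD (log2 fold change -0.74, adjusted p = 0.00163). *Gnb5* rose in all 4 treatment comparisons, under CL on chow (33.7 against 23.02 CPM, log2 fold change 0.55, SE 0.12, adjusted p = 0.00139) and HFD (log2 fold change 0.55, adjusted p = 0.00233) and in C-3BO mice on HFD (0.51, adjusted p = 0.000976) and chow (0.33, adjusted p = 0.0324). The last of these calls was lost without chow control replicate 1, 2 or 5 or chow C-3BO replicate 1 or 3 (log2 fold change from 0.25 to 0.33, adjusted p from 0.0527 to 0.12), with library totals alone (0.13, adjusted p = 0.423) and with the libraries of the comparison alone (adjusted p = 0.0879). Of the gamma subunits *Gngt2* fell in C-3BO mice on chow (12.7 against 36.8 CPM, log2 fold change -1.53, SE 0.17, adjusted p = 1.48e-08) and HFD (log2 fold change -0.87, adjusted p = 0.000115) and under CL on HFD (-0.52, adjusted p = 0.0289), a call lost without saline replicate 2 or 4 or CL replicate 1 or 5 (log2 fold change from -0.45 to -0.50, adjusted p from 0.0616 to 0.0756). *Gng7* fell in HFD C-3BO mice (log2 fold change -1.004, adjusted p = 2.3e-06) and under CL on chow (20.2 against 28.5 CPM, log2 fold change -0.50, SE 0.14, adjusted p = 0.0161; adjusted p = 0.0563 without saline replicate 5) and HFD (-0.74, adjusted p = 0.000731). Among 3 tested receptor kinases, *Adrbk2*, which codes for GRK3, rose in chow C-3BO mice (287 against 154 CPM, log2 fold change 0.90, SE 0.20, adjusted p = 0.000804), opposite to *Grk5* and *Grk6*. On HFD it did not pass (log2 fold change 0.46, adjusted p = 0.0709). *Adrbk1*, which codes for GRK2, fell in HFD C-3BO mice (log2 fold change -0.20, adjusted p = 0.0161) and under CL on chow (-0.20, adjusted p = 0.0301). In C-3BO mice on chow it did not pass (-0.09, adjusted p = 0.29). Under CL on HFD 1 of these 3 kinases fell and 0 rose. The *Adrbk1* calls were not followed through the alternatives.

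The RGS genes went both ways. *Rgs7* rose in all 4 treatment comparisons, by log2 fold changes of 0.71 and 0.73 in C-3BO mice on chow and HFD and 0.52 and 0.76 under CL (SE 0.14 to 0.15). The call under CL on chow was lost without saline replicate 2 (log2 fold change 0.42, adjusted p = 0.0587). *Rgs4* rose in C-3BO mice on chow (13.7 against 7.44 CPM, log2 fold change 0.87, SE 0.20, adjusted p = 0.000993) and HFD (17.7 against 10.6 CPM, log2 fold change 0.73, SE 0.20, adjusted p = 0.00356; adjusted p = 0.0518 without HFD C-3BO replicates 4 and 5). *Rgs11* fell with *Rgs2* in C-3BO mice, from 5.91 to 0.950 CPM on chow (log2 fold change -2.58, SE 0.43) and from 2.25 to 0.994 CPM on HFD (log2 fold change -1.20, SE 0.46). Its call on HFD was lost without control replicate 1, 2 or 5 or C-3BO replicate 1, 2, 3 or 5 (log2 fold change from -0.998 to -1.22, adjusted p from 0.0587 to 0.106). Under CL on HFD *Rgs10* (3.16 against 7.37 CPM, log2 fold change -1.12, SE 0.30, adjusted p = 0.00575) and *Rgs18* (0.650 against 1.87 CPM, log2 fold change -1.62, SE 0.58, adjusted p = 0.0397) fell, 2 genes known from leukocytes and platelets. In this comparison 2 of 7 macrophage and 0 of 5 lymphocyte markers fell, and the part of these cells in the result was not tested. *Rgs18* lost its call without saline replicate 1, 2 or 5 or CL replicate 1, 4 or 5 (log2 fold change from -1.35 to -1.75, adjusted p from 0.0547 to 0.112) and with no filter on low counts (adjusted p = 0.0533).

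In the arrestin list *Txnip*, an arrestin-domain protein that binds thioredoxin and limits glucose uptake, fell on HFD in C-3BO mice (875 against 2136 CPM, log2 fold change -1.29, SE 0.20, adjusted p = 5.31e-06) and under CL (889 against 1875 CPM, log2 fold change -1.08, SE 0.20, adjusted p = 0.000145). *Arrdc3*, an arrestin-domain protein that binds β-adrenergic receptors, rose under CL on HFD (47.9 against 31.8 CPM, log2 fold change 0.55, SE 0.18, adjusted p = 0.0235), a call lost without saline replicate 1 or 3 or CL replicate 2 or 5 (log2 fold change from 0.49 to 0.54, adjusted p from 0.0526 to 0.0694) and with library totals alone (0.42, adjusted p = 0.102). It also rose under CL on chow (log2 fold change 0.50, adjusted p = 0.0416). That call was lost without saline replicate 2, 3, 4 or 5 or CL replicate 1 or 4 and in 5 of the alternative settings (log2 fold change from 0.36 to 0.53, adjusted p from 0.0506 to 0.165). *Sag*, the visual arrestin, was at about 1 CPM or less and fell in HFD C-3BO mice (0.481 against 1.29 CPM, log2 fold change -1.32, SE 0.49, adjusted p = 0.0345) and under CL on chow (0.381 against 1.12 CPM, log2 fold change -1.47, SE 0.48, adjusted p = 0.0335). Both calls were lost with single libraries left out, on HFD without control replicate 2 or 3 or C-3BO replicate 1, 3 or 4 (log2 fold change from -1.08 to -1.28, adjusted p from 0.0566 to 0.0896) and on chow without saline replicate 2 or 5 or CL replicate 1, 2 or 4 (log2 fold change from -1.24 to -1.59, adjusted p from 0.051 to 0.0972).

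Without chow CL replicate 5 the log2 fold changes under CL on chow were 0.80, adjusted p = 2.09e-07 for *Gnao1*, 0.59, adjusted p = 0.000922 for *Gnb5*, 0.53, adjusted p = 0.012 for *Rgs7*, 0.51, adjusted p = 0.0488 for *Arrdc3*, -0.51, adjusted p = 0.0212 for *Gng7*, -0.24, adjusted p = 0.0402 for *Gna11* and -1.68, adjusted p = 0.0254 for *Sag*, and all 7 still passed the test. With the summed muscle level as a covariate the calls of *Gnas* (0.61, adjusted p = 0.00807), *Gnai2* (-0.35, adjusted p = 0.00707), *Gnao1*, *Gnb5*, *Rgs7*, *Gng7* and *Sag* under CL on chow passed, and those of *Gna11* and *Arrdc3* did not.

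**Figure D5:**
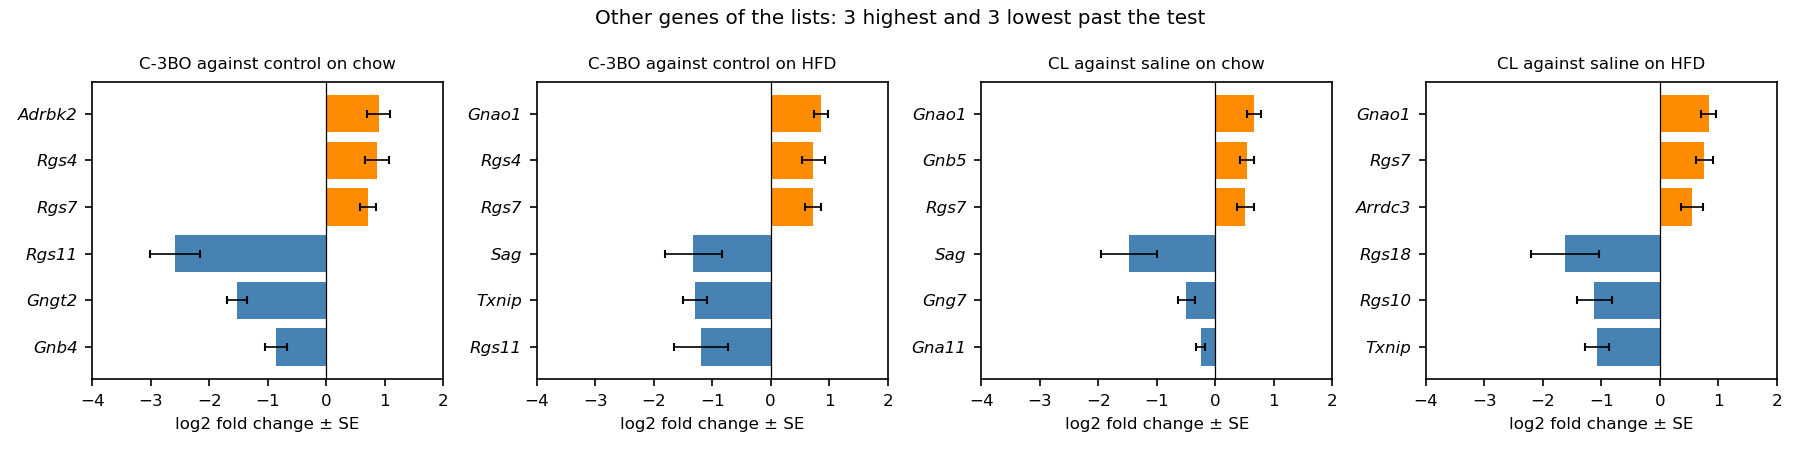
log2 fold change ± SE of the 3 highest and 3 lowest genes of the other lists that passed the test in each treatment comparison. *Rgs7* is among the 3 highest in all 4 panels and *Rgs11* among the 3 lowest in both C-3BO panels. A gene missing from a panel may still have passed the test there, as *Gnao1* and *Gnb5* did.

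For each gene the tested gene with the most similar pattern was found by Pearson's r of log2 CPM over the 40 libraries, which share groups and sequencing depth. *Gnas* ran closest to *Eci2*, a peroxisomal enzyme of fatty acid oxidation (r = 0.936, and 0.848 over the 20 chow libraries). *Gnai2* ran closest to *Map4* (r = 0.910), *Arrb2* to *Myo1f*, a myosin of leukocytes (r = 0.874), *Grk5* to *Ctdsp2* (r = 0.856), *Arrb1* to *Clic4* (r = 0.845) and *Rgs2* to *Klhdc1* (r = 0.841). Over the 20 chow libraries r was between 0.805 and 0.880 for these 6 pairs. The closest genes of the other 4 were less similar, *Dnmt3a* for *Grk6* (r = 0.759, and 0.794 on chow), *Slc7a10* for *Gnai1* (0.720 and 0.477), *Fam115c* for *Gnai3* (0.696 and 0.704) and *C1d* for *Gnal* (0.682 and 0.481). Without the 12 libraries of low totals r was 0.444 for *Gnal* and 0.564 for *Gnai3*.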

How the data were processed

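RNA from BAT of 40 mice was sequenced, 5 mice in each of 8 groups, and groups and replicate numbers were taken from the sample labels. Libraries were made by poly(A) selection from 1 µg of total RNA with a TruSeq kit that does not mark strand. The deposited counts are raw exon counts per gene that the authors made by aligning reads to mm9 with STAR, building tag directories in HOMER and counting exon reads with iRNA-seq. The versions and the strand setting of the counting are not given in the sources used here. All 40 columns of counts were used. Total counts per library limit the precision of low genes, and 3 counts, taken as the smallest readable level, are worth 0.206 to 3.01 CPM in these libraries.

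Genes were kept by filterByExpr with a minimum count of 10, which left 13277 of 20295 genes. The counts were scaled by TMM factors and fitted in edgeR 4.0.16 (R 4.3.3, limma 3.58.1) with 1 mean per group over all 40 libraries, since the groups share 1 estimate of the spread. Quasi-likelihood tests were run for the 2 treatments on each diet, for diet within the first cohort, and for differences between these effects, with p-values adjusted by Benjamini-Hochberg over all tested genes, 2-sided, and called under 0.05. A SE is the log2 fold change over the root of its F statistic. The method was tested on simulated data. No 2 libraries of a group agreed within counting noise. Replicates are separate mice.

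The 10 genes were named by the rule, with, from the other lists, the 3 highest and 3 lowest called genes of each treatment comparison, and the 1 gene most like each of the 10. *Grk4* and *Adrbk1* were given beside them as the other tested receptor kinases. *Gpr3*, *Ucp1* and *Alb* served as checks. The genes and lists were chosen with earlier results of these data known. Alternatives were RLE factors, library totals alone, no filter, a replicate block, the libraries of the comparison alone, DESeq2 1.42.0, each library left out, and HFD C-3BO replicates 4 and 5 left out. The summed muscle marker level as a covariate was added after seeing the data. Gene positions are those of the deposited table, in mm9, and overlaps were read from a GENCODE annotation of that build. Promoter windows came from RefSeq for GRCm38.p6. Figures were drawn with matplotlib 3.10.9 in Python 3.11.15.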

Additional observations from a re-analysis of the deposited data

Results flagged for a closer look

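Within each group of 5 mice the gap of the highest or lowest mouse to its nearest neighbour was set against the range of the group. In 80 such checks, 10 genes in 8 groups, 5 gaps exceeded Dixon's critical value of 0.71, and chance alone gives about 1 in 20. *Gnas* was 4109 CPM in chow control replicate 4, above the other 4 mice at 2431 to 2838 CPM. *Arrb1* was 137 CPM in HFD control replicate 1 against 109.8 to 115 CPM in the others, and the diet call of *Arrb1* is lost without this mouse. *Arrb1* was also 164 CPM in chow CL replicate 3 against 119 to 131 CPM, in the library that had 9.15 CPM of *Gpr3*. *Grk5* was 44.3 CPM in chow CL replicate 5, the library with *Ucp1* in the saline range. *Grk6* was 38.1 CPM in chow control replicate 4, below the other 4 mice at 46.1 to 47.4 CPM. The causes were not tested.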

How the results depend on the processing

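Of 100 results, 10 genes in 10 comparisons, 31 passed the test. Of these, 21 passed in each alternative setting, 18 with each library left out in turn and 16 in both, and none of the 31 changed direction in any of these settings. Directions within 1 SE of 0 were not read. With library totals alone, 1 of the 10 genes rose in C-3BO mice on chow (1045 of all 13277 genes). On HFD against chow 0 fell in control mice (1413 of all genes) and 4 rose in C-3BO mice (3858 of all genes). With the libraries of the comparison alone 3 genes fell in C-3BO mice on chow. With the muscle level as a covariate 1 gene rose and 0 fell on HFD in control mice, where muscle and diet cannot be told apart. Without HFD C-3BO replicates 4 and 5, 1 gene differed between the C-3BO and CL effects on HFD. Results that did not pass the test and changed sign were *Gnai3* with library totals alone, at -0.081 for C-3BO on chow and -0.0383 for CL on HFD, and *Gnal* for C-3BO on HFD, at -0.0059 without HFD C-3BO replicates 4 and 5. With 1 library left out, the number of genes in C-3BO mice on chow ranged from 1 to 3 higher and from 3 to 5 lower. Under CL from 0 to 1 fell on chow and from 0 to 2 on HFD. On HFD in control mice 2 to 4 rose and 0 to 1 fell, and 1 to 4 genes differed between the C-3BO and CL effects on HFD. The causes were not tested.

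The groups share replicate numbers that the labels tie to no litter or day. Deviations of mice with the same number correlated between -0.204 and 0.539, and in no comparison was every pair over 0.1. Whether mice of the same number shared a litter or day cannot be told from these values. With a replicate block 3 genes rose and 5 fell in C-3BO mice on chow and 3 rose and 4 fell on HFD, and no count of the 10 genes in the other comparisons changed. Of the other named genes *Rgs11* lost its call on HFD in C-3BO mice under the block (log2 fold change -1.18, adjusted p = 0.0556). A mouse correlated best with its own number for 3 of 5 mice in both C-3BO comparisons and for 0 or 1 in the others.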
